A study of Mus musculus with 35 samples.

Results

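A set of 1175 chromatin regions was open in adult mouse blood stem and progenitor cells and was not called in the fetus. The cells were haematopoietic stem cells (HSCs) and progenitor cells (HPCs), and the assay was ATAC-seq, which reads out where the enzyme Tn5 transposase can cut and tag DNA that is not packed away. The 1175 regions are those of the adult HSC peak list that overlapped, by at least 1 bp, a region in the lists of adult HPCs and of HSCs and HPCs at postnatal day 14 (P14), and that overlapped none in fetal HSCs or fetal HPCs. They make up 1.31% of the 89431 regions of the adult HSC list on chromosomes 1 to 19 and X, and 2.26% of the 51900 that were in all 4 of these postnatal lists. The regions were chosen by the peaks called in the adult, P14 and fetal lists, so values from those lists are a description. The lists of HPCs at P7 and P21, and 4 lists from a second experiment at P7, played no part in the choice.

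The study held 35 libraries in 12 groups, all on a B6 background according to the design text, with the libraries of a group pooled into a single peak list. Set 1 covers fetal HSCs and HPCs at E16.5 (3 libraries each), HPCs at P7 (3), P14 (2) and P21 (2), HSCs at P14 (3), and adult HSCs (5) and HPCs (3) aged 8 weeks. The titles of the adult libraries carry the label WT, for wild type. Apart from that, set 1 labels give no allele or treatment. Set 2 was taken at P7 and compared wild-type HPCs (3) and HSCs (3) with HPCs (3) and HSCs (2) of the genotype labelled Infnar_KO, a loss of the receptor for type I interferon according to the design text. No replicate spread can be given, because every value holds for 1 list per group, and no test was possible. Intervals below are exact Clopper-Pearson intervals at 95%. These are intervals on counts of regions and reflect counting error alone, because each group has 1 list and neighbouring regions are not independent. The labels also name no molecular identifiers, and whether the fragments behind a peak are independent molecules is not known here.

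Some labels and lists disagreed. The descriptions of 12 of the 35 libraries name the peak list of another group: 3 of 3 for P14 HSCs, 2 of 2 for P14 HPCs, 2 of 2 for P21 HPCs, 3 of 5 for adult HSCs, and 1 each for fetal HPCs and P7 HPCs. Each list was therefore taken as the group that its own name gives. When the P14 lists were not required, 4858 regions met the rule. The title of 1 knockout HPC library carries the code of a wild-type library, and that library was placed by its genotype label. The lists held 42459 regions (knockout HSCs) to 91043 (P14 HPCs), and read depth per library was not used here. All 10 HSC marker genes checked, among them Mecom, Hlf, Procr and Kit, had an adult HSC region within 1 kb of a gene end. Of the markers of other cells, 0 of 2 for T cells, 1 of 2 for B cells, 2 of 3 each for hepatocytes, endothelium and macrophages and 3 of 3 each for stroma and erythroid cells had an adult HSC region there, so a region near a marker does not set these cell types apart.

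Most blood cells arise from HSCs, which in late gestation divide in the fetal liver and after birth settle in the bone marrow and become mostly quiescent. HPCs are their immediate descendants. Accessible chromatin marks promoters, which lie at gene starts and are often open in many cell types, and distal enhancers, whose accessibility differs between cell states. Type I interferon acts through a receptor made of Ifnar1 and Ifnar2. Binding activates the kinases Jak1 and Tyk2, and the signal ends in a complex of transcription factors that binds a short DNA element, the interferon-stimulated response element (ISRE), in the promoters of antiviral genes.

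A minority of the gene starts among the gained regions held the letters of that element. Of the 1175 regions, 25 (2.13%) overlapped a RefSeq promoter window, from 250 bases before to 50 bases after the start of a protein-coding gene, and together they touched 26 windows of 25 genes. The core letters of the ISRE, TTTCNNTTTC or, read on the opposite strand, GAAANNGAAA, occurred in 6 of the 26 windows (23.1%, interval 8.97 to 43.6). They occurred in 3.36% of all 21020 windows of that length and in 2.77% of the 11943 windows at regions open in both fetal lists as well. In 5 of the 6 genes the match lay inside the gained region, and these are shown as the 250 bases before the start, 5′ to 3′ on the strand of the gene, from RefSeq for GRCm38.p6. Capitals mark the ISRE letters and, in Gm12250 alone, also a match to TTCNNNGAA, the letters of the gamma-activated site (GAS) that STAT dimers bind. Isg15 (chr4:156200819-156201068, minus strand) encodes a ubiquitin-like protein, Gm12250 (chr11:58183593-58183842, plus strand) an interferon-inducible GTPase, Oas3 (chr5:120777660-120777909, minus strand) an oligoadenylate synthetase that senses viral RNA, Tlr6 (chr5:64959167-64959416, minus strand) a Toll-like receptor, and Bco2 (chr9:50553663-50553912, minus strand) a carotenoid-cleaving enzyme.
Isg15: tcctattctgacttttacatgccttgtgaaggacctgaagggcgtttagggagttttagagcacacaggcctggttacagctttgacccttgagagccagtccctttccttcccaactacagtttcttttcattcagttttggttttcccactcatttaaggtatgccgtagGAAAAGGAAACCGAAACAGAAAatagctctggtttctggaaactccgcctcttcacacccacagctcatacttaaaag
Gm12250: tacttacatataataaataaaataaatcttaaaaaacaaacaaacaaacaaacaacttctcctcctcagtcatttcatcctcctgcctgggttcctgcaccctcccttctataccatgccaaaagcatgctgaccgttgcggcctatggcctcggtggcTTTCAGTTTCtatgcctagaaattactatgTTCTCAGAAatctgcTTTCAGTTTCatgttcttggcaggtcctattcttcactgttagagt
Oas3: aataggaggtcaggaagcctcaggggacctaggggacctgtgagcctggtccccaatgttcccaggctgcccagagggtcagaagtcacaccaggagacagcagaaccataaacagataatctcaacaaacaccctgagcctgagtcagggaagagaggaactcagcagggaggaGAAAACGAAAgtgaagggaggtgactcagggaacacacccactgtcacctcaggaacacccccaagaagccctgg
Tlr6: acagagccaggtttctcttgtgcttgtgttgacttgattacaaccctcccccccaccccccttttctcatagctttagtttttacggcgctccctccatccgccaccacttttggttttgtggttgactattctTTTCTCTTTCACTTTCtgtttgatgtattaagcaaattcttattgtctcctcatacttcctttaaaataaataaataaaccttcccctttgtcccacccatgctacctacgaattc
Bco2: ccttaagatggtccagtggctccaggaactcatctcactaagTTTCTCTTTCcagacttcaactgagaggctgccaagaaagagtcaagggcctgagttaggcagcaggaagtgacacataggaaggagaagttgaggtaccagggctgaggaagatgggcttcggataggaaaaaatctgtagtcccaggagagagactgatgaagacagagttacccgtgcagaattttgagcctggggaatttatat

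In Isg15 3 overlapping matches began 78, 72 and 66 bases before the start. Gm12250 had matches 91 and 46 bases before its start, with the GAS letters 61 bases before it. Tlr6 had 2 overlapping matches, at 116 and 110 bases, and Oas3 had 1 at 75 bases. Bco2 had 1 at 208 bases. The sixth gene, Sv2b, had its match 203 bases before the start and outside the gained region. A match describes the letters and does not show that a factor binds there.

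In all, 8 motifs were searched on both strands of these windows. The GC box GGGCGG, which the factor Sp1 binds in promoters of widely expressed genes, was in 6 of the 26 windows (23.1%), in 46.6% of all windows and in 68.0% of those open in both fetal lists. CCAAT was in 4 of 26 (15.4%, interval 4.36 to 34.9), against 38.5% of all windows. GAGGAA, the core that the myeloid factor PU.1 recognises, was in 13 of 26 (50%, interval 29.9 to 70.1), against 27.2% of all windows. TGANTCA, the AP-1 site, was in 4 of 26 windows and in 7.04% of all, AGATAA for GATA factors in 3 and 9.69%, and TGTGGT for RUNX factors in 5 and 14.7%. The GAS letters were in 2 of 26 windows, those of Gm12250 and of Glrp1, and in 7.76% of all windows. None of 1005 miRNA hairpins of the RefSeq table lay in a gained region.

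Most of the gained regions were weak within the lists that called them. Strength is given here as the -log10 p that the authors' peak caller assigned, and it is the authors' own value, used only to describe and rank regions within a list. In the adult HSC list the gained regions ranged from 1.30 to 1847 with a median of 45.6. The median was 56.2 for the 4258 regions of the 4 postnatal lists that were in 1 fetal list, 185 for the 46467 in both fetal lists and 83.0 for all adult HSC regions. Their median fold over local background was 7.13, against 14.1 for regions of both fetal lists, and their median width was 451 bp, against 688 bp. When the adult HSC list was divided by -log10 p into 4 strength classes of 25% each, the gained regions numbered 452 in class 1 (weakest), 433 in class 2, 224 in class 3 and 66 in class 4 (strongest).

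**Figure D1:**
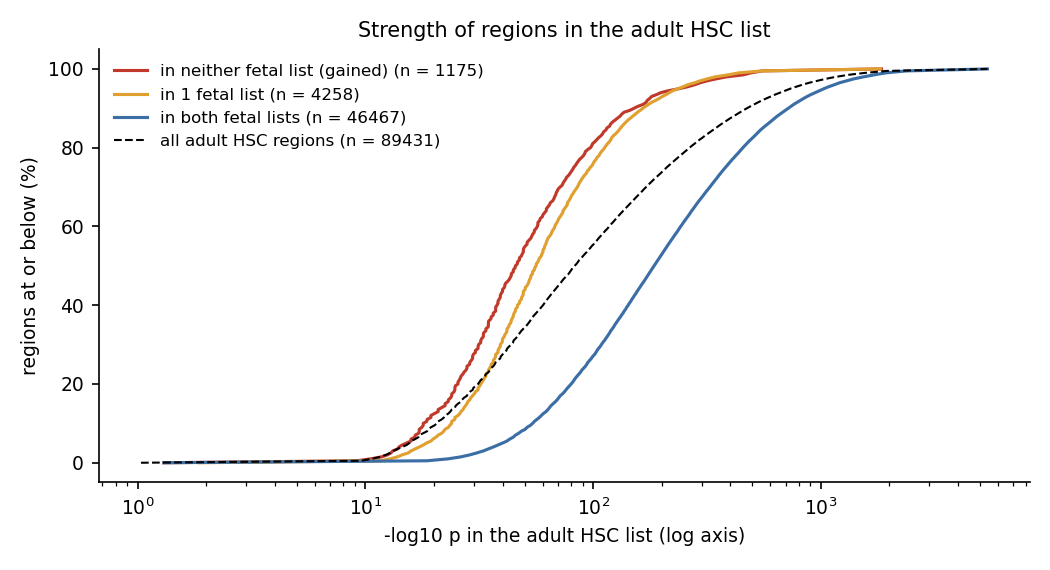
Cumulative share of regions (vertical axis, %) by their -log10 p in the adult HSC list (horizontal log axis), for the 1175 gained regions, the 4258 regions in 1 fetal list, the 46467 in both fetal lists and all 89431 regions. The gained regions have the lowest median, 45.6, and the curve of regions in both fetal lists lies far to its right, with a median of 185.

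In other lists the gained regions also ranked low. The share of the called members that lay in the upper 50% of the list by -log10 p was 24.7% in adult HSCs, 30.8% in adult HPCs, 14.4% in P14 HSCs and 19.8% in P14 HPCs. In the lists that the rule did not use, that share was 14.99% in P7 HPCs, 21.8% in P21 HPCs, 27.7% in set 2 wild-type HPCs and 6.91% in set 2 wild-type HSCs. Absence from a list means that no peak was called, and the chromatin need not be closed.

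At the border of the rule, the nearest fetal region to a gained region was at least 5 bp away, with a median gap of 4156 bp. Within 100 bp of a fetal region lay 29 gained regions, with a median -log10 p of 33.8, and within 1000 bp lay 225. For 260 of the 1175 no fetal region lay within 10 kb. Just outside the rule were 2 regions of the 4 postnatal lists that overlapped a fetal region by at most 50 bp, with a median of 98.4. Of the 1175, 12 lay within 1000 bp of another gained region, so a few may be parts of 1 accessible stretch.

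The gained regions lay mostly away from gene ends. Of the 1175, 87 (7.40%, interval 5.97 to 9.05) were within 1 kb of either end of a protein-coding gene, against 18.5% of all adult HSC regions and 28.6% of regions in both fetal lists. At promoter windows the share was 2.13%, against 21.2% of regions in both fetal lists and 12.2% of all. Regions in 1 fetal list stood close to the gained ones, with 9.07% within 1 kb of a gene end and 3.01% at a promoter window. Gene bodies held 669 of the gained regions (56.9%, interval 54.0 to 59.8), against 58.9% of all adult HSC regions. The median distance to a gene end was 17.1 kb.

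By chromosome, the gained share of adult HSC regions was highest on chromosome 11, with 104 of 5033 (2.07%, interval 1.69 to 2.498). On the X chromosome it was lowest, with 16 of 2516 (0.636%, interval 0.364 to 1.03), and chromosome 3 followed with 42 of 5235 (0.802%). The sexes of the animals are not given in the labels, and the part of sex in the X value was not tested.

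Within 50 kb of a gene end lay 906 gained regions (77.1%), nearest to 838 genes. Of these genes, 773 had 1 gained region, 62 had 2 and 3 had 3. A gene is named below by its nearest end, which does not show that the region acts on it.

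Presence in the lists outside the rule was partial, and in set 2 it was lower in the HSC list than in the HPC list. At P7 in set 1, 627 of the 1175 gained regions were called in HPCs (53.4%, interval 50.5 to 56.2), against 69.2% of all adult HSC regions. At P21, 728 were called in HPCs (62.0%, interval 59.1 to 64.7), against 67.1%. In set 2 at P7, 726 were called in wild-type HPCs (61.8%, interval 58.9 to 64.6), against 58.5%, and 304 in wild-type HSCs (25.9%, interval 23.4 to 28.5), against 47.5%. That HSC list is also the shorter, with 45615 regions against 66044, and the part of list length was not tested. The knockout lists held 553 in HPCs (47.1%, interval 44.2 to 49.96), against 54.9%, and 215 in HSCs (18.3%, interval 16.1 to 20.6), against 44.3%. For regions in both fetal lists the shares were 94.7% in P7 HPCs, 93.8% in P21 HPCs, 87.6% in wild-type HPCs and 77.9% in wild-type HSCs. Regions in 1 fetal list lay between these at 71.7%, 74.4%, 69.4% and 42.7%.

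**Figure D2:**
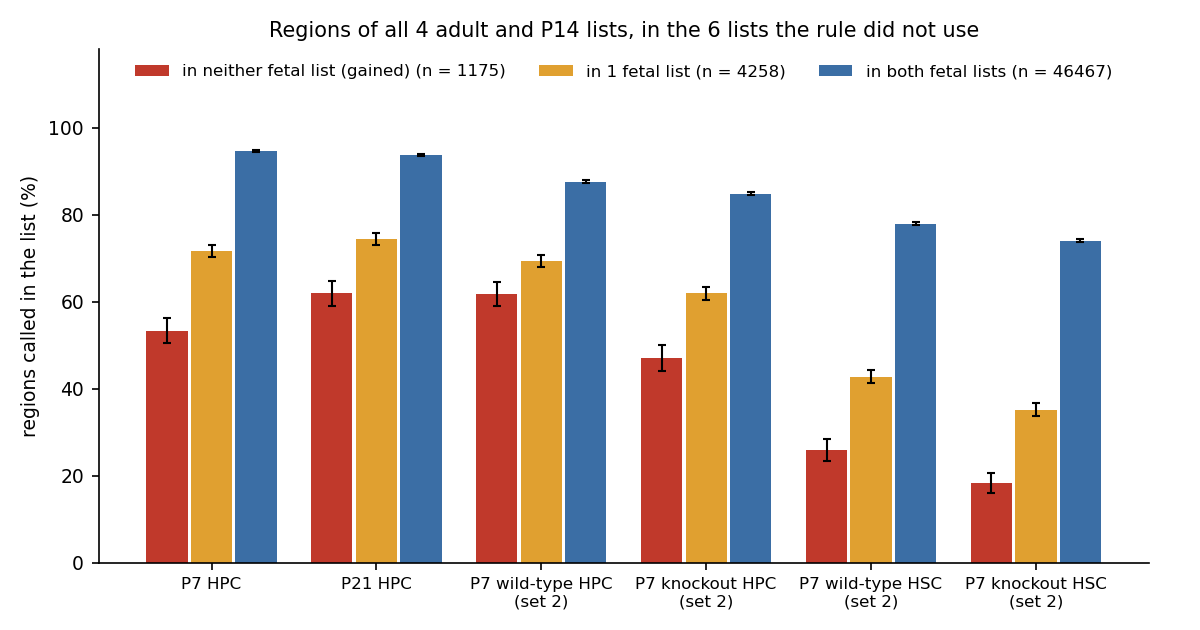
Share of regions called (vertical axis, %) in each of the 6 lists the rule did not use, for the 1175 regions in neither fetal list, the 4258 in 1 and the 46467 in both; whiskers are exact 95% intervals. The gained regions have the lowest bar in every list, from 62.0% in P21 HPCs to 18.3% in P7 knockout HSCs.

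Strength in the adult HSC list changed how these shares compared. Among regions of class 1, the weakest, 45.4% of the gained regions were in P7 HPCs and 33.7% of all adult HSC regions were. In class 4 the order turned, at 53.0% of 66 gained regions and 97.0% of all. Gained regions had to be in the other 3 postnatal lists of the rule, and all adult HSC regions did not. Among regions held to the same lists, those in 1 fetal list were at 65.7% in class 1 and 76.1% in class 4. Those in both fetal lists were at 76.9% and 99.2%, so in both classes the gained share was the lowest of these 3. In P21 HPCs the gained share ran from 54.9% in class 1 to 77.3% in class 4, and in set 2 wild-type HSCs from 18.6% to 34.8%. In set 2 wild-type HPCs it ran the other way, from 65.3% to 47.0%. The share of regions in 1 fetal list fell there too, from 72.7% to 54.4%, and that of regions in both fetal lists rose, from 78.7% to 93.7%. Of the 66 gained regions of class 4, 31 were called in set 2 wild-type HPCs. Regions with the opposite pattern were read in the same lists. Of 2923 regions called in fetal HSCs and HPCs and in no adult or P14 list, 15.3% were in P7 HPCs, 5.10% in P21 HPCs, 3.01% in set 2 wild-type HPCs and 0.513% in set 2 wild-type HSCs.

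Calls differed between ages, and about as much between the lists of P7 HPCs from the 2 sets, so they do not order the regions in time. Both P7 HPC lists without the knockout, 1 from each set, held 462 gained regions (39.3%), only that of set 1 held 165, only that of set 2 held 264, and neither held 284 (24.2%). Within set 1, 454 were called at both P7 and P21, 173 at P7 alone, 274 at P21 alone and 274 at neither age. Any of the 5 P7 lists held 962 (81.9%, interval 79.5 to 84.0). Of the 726 in set 2 wild-type HPCs, 252 (34.7%) were also in wild-type HSCs, and of the 304 in wild-type HSCs the same 252 (82.9%) were in HPCs. All 10 postnatal lists held 59 gained regions (5.02%), against 56.8% of regions in the 4 postnatal lists of the rule. None of the other 6 lists held 129 (11.0%, interval 9.25 to 12.9), against 1.05%.

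The strongest gained regions with a gene end within 50 kb lay near genes of varied function. First was a region inside Tcof1 on chromosome 18, a gene for a nucleolar protein needed for ribosomal RNA synthesis, which was called in all 10 postnatal lists. Its -log10 p was 827 in adult HSCs, 610 in adult HPCs, 363 in P14 HSCs, 327 in P14 HPCs, 257 in P21 HPCs and 87.2 in P7 HPCs. In set 2 it was 182 in wild-type HPCs, 94.2 in wild-type HSCs, 121 in knockout HPCs and 49.1 in knockout HSCs. Its nearest fetal region was 16836 bp away. A region inside Col27a1, a fibrillar collagen gene (chromosome 4, 63302431 to 63303087, build mm10), was also in all 10, with 701 in adult HSCs, 395 in adult HPCs, 203 in P14 HSCs and 23.2 in P7 HPCs.

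Also in all 10 postnatal lists were regions near Pmepa1, whose product restrains TGF-beta signalling, Phlpp1, a phosphatase of the kinase Akt, and Cpne2, a calcium-dependent lipid-binding protein. Their -log10 p in adult HSCs was 487, 442 and 382. The Pmepa1 region (chromosome 2, 173257402 to 173258286) and the Cpne2 region (chromosome 8, 94540958 to 94541890) lay inside the genes, and the Phlpp1 region (chromosome 1, 106400549 to 106401481) lay 6.30 kb outside. These 5 were the strongest of the 59 regions called everywhere after birth.

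Other strong regions were missing from P7 HPCs of set 1 or from lists of set 2. The region inside Col16a1, a collagen gene (chromosome 4, 130074916 to 130075584), had 584 in adult HSCs, 206 in adult HPCs, 144 in P14 HSCs, 44.5 in P14 HPCs and 45.4 in P21 HPCs, and was not called in P7 HPCs of set 1. In set 2 it was called in wild-type HPCs (32.7) and HSCs (31.4) and in neither knockout list. Regions near Myrfl (489), Arhgap42 (454), Pkd1l1 (431), a polycystin family gene, Sv2b (368), a synaptic vesicle protein gene, and Tusc1 (358) were in no set 2 list. Of these, the regions of Myrfl, Pkd1l1 and Tusc1 were called in P7 HPCs of set 1, at 54.9, 12.9 and 23.5. Another, weaker gained region inside Sv2b (17.2 in adult HSCs) was called in P7 HPCs of set 1 (26.9). In set 2 that weaker region was in wild-type (66.1) and knockout (48.5) HPCs.

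Of the 6 lists outside the rule, none called the stronger gained region near Gas6, and 3 called that near Sgk1. Gas6 encodes a ligand of the receptor kinases Axl and Mertk. Its stronger region (chromosome 8, 13515867 to 13516939) had 342 in adult HSCs and 108 in P14 HSCs, 24.6 in adult HPCs and 16.3 in P14 HPCs, and none of the other 6 lists called it. Another gained region, nearer to a Gas6 end, had 260 in adult HSCs. It was called in P21 HPCs (21.7) and set 2 wild-type HSCs (19.3). Sgk1 encodes a kinase induced by glucocorticoids. Its region (chromosome 10, 21855117 to 21855737) had 351 in adult HSCs and 100.8 in P14 HSCs, 66.2 in adult HPCs and 25.05 in P14 HPCs, and in set 2 it was called in the wild-type (45.4) and knockout (22.7) HSC lists and in neither HPC list. In set 1 this Sgk1 region was also called in P21 HPCs, at 9.89, and not in P7 HPCs. Another gained region, inside Sgk1 (35.4 in adult HSCs), was called among these 6 lists only in P21 HPCs, at 22.6. Lists differ in their scale of -log10 p, so these values rank a region within its own list and show no change between lists.

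**Figure D3:**
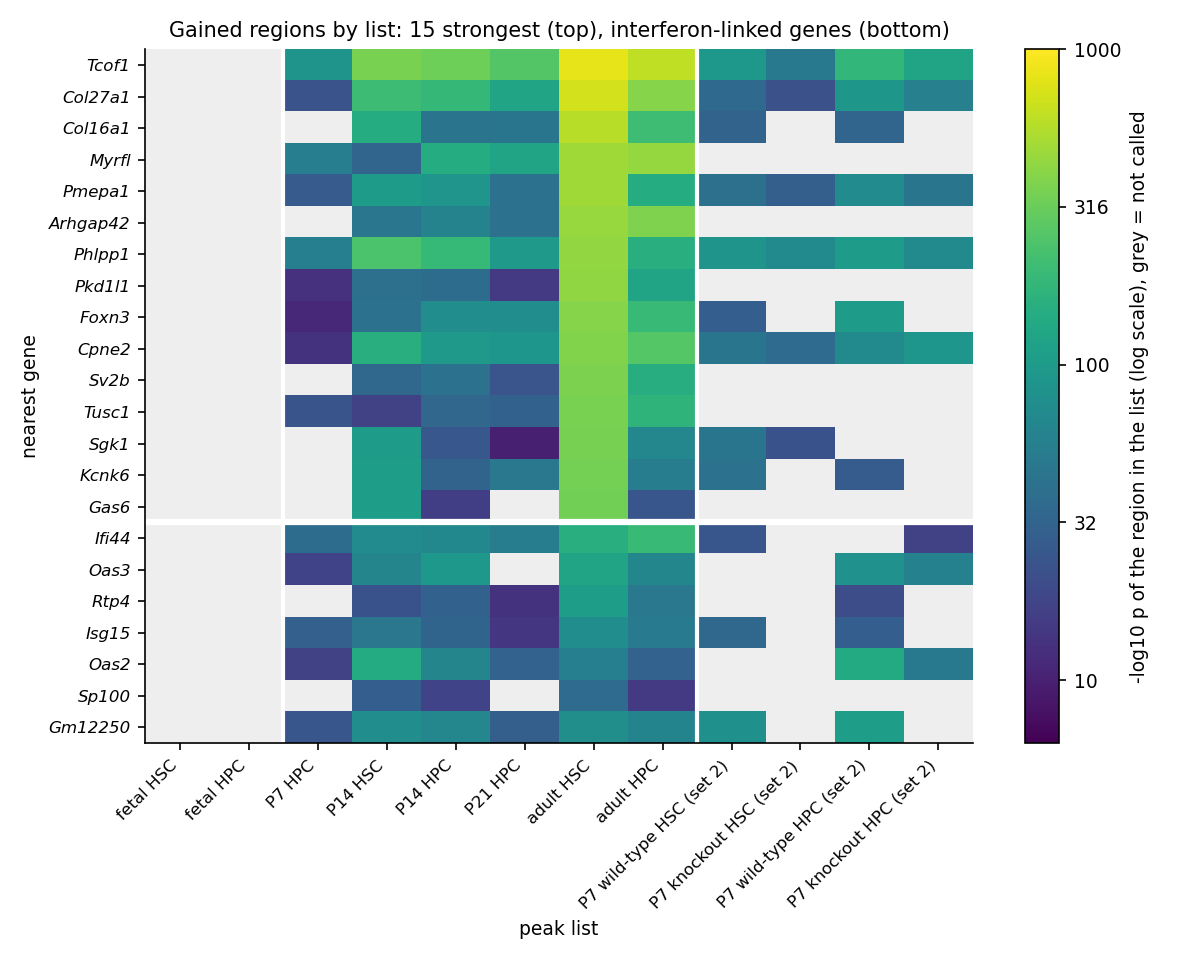
Colour gives the -log10 p of a region in each of the 12 lists on a log scale, and grey marks a region not called; the upper block holds the 15 strongest gained regions by nearest gene and the lower block the 6 regions near type I interferon-stimulated genes and the Gm12250 region. Both fetal columns are grey by the rule, and the rows of Isg15 and Gm12250 are coloured in every postnatal list except the 2 knockout lists.

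Besides Gas6, the strongest regions called in none of the other 6 lists lay near Sh3tc2 (298 in adult HSCs), Slc44a3 (279), a choline transporter family gene, Trappc10 (217), a gene of vesicle traffic, and Oit3 (210). Their P14 HSC values were 30.6, 59.5, 41.8 and 38.4. These regions were thus open at P14 and in the adult in both cell types, by the rule, and not called at P7 or P21. Another, weaker gained region near Slc44a3 (47.4 in adult HSCs) was called in P7 HPCs of set 1, at 17.8.

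The 2 strongest gained regions of all had no gene end within 50 kb. The first (chromosome 5, 79734712 to 79735293) had 1847 in adult HSCs, 261 in adult HPCs, 57.5 in P14 HSCs and 47.98 in P14 HPCs, and its nearest gene end, that of the adhesion receptor gene Adgrl3, was 1284 kb away. Of the other 6 lists, P7 HPCs of set 1 (12.3) and wild-type P7 HSCs (16.3) held it, and P21 HPCs, wild-type P7 HPCs of set 2 and both knockout lists did not. The second (chromosome 10, 37314866 to 37315506), 176 kb from Marcks, a substrate of protein kinase C, had 1121 in adult HSCs and 569 in adult HPCs, and 31.7 and 103 in P14 HSCs and HPCs. It was called in P21 HPCs (98.9) and in no P7 list. In all, 269 of the 1175 regions had no gene end within 50 kb.

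Among 17 gene lists, those stimulated by type I interferon held the highest share of gained regions. Of 86 adult HSC regions nearest to 1 of these genes within 50 kb, 6 were gained (6.98%, interval 2.60 to 14.6), against 1.4% of the 64729 regions near all protein-coding genes. Each of the 6 lay nearest to a different gene: Ifi44, Oas3, Rtp4, Isg15, Oas2 and Sp100. Within 10 kb, 5 of 68 were gained (7.35%). The lists were chosen with earlier results of these data known, so this share is a description. With the 50000 strongest regions of each set 1 list it was 5.66% (interval 1.18 to 15.7), and among strong adult HSC regions 6% (interval 1.25 to 16.55). Both intervals reached below 1.4%. That share near all genes holds for the rule as reported and is not given here for the alternatives.

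Isg15 had 1 adult HSC region, and it was gained (chromosome 4, 156200723 to 156201022), spanning the gene start and all 3 ISRE matches printed above. Its -log10 p was 75.7 in adult HSCs, 51.0 in adult HPCs, 46.7 in P14 HSCs, 32.2 in P14 HPCs, 14.1 in P21 HPCs and 29.9 in P7 HPCs. In set 2 it was 28.7 in wild-type HPCs and 34.0 in wild-type HSCs, and neither knockout list called it. The nearest fetal regions were 1820 bp away in HSCs and 1481 bp away in HPCs. A peak at the Isg15 start was thus called in all 8 postnatal lists other than the knockout lists, and in none of the other 4. Both set 2 values lie in class 1, the weakest, of their lists (below 45.4 in wild-type HPCs and 37.8 in wild-type HSCs), where 64.8% and 72.3% of the gained regions were missing from the knockout.

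Oas2 and Oas3 lie side by side and each had a gained region at a gene end. The Oas3 region (chromosome 5, 120777513 to 120777930) had 122 in adult HSCs, 64.3 in adult HPCs, 63.2 in P14 HSCs, 93.1 in P14 HPCs and 17.5 in P7 HPCs, and was not called in P21 HPCs. In set 2 it was in wild-type (81.4) and knockout (58.9) HPCs and in neither HSC list. The Oas2 region (chromosome 5, 120749741 to 120750337) had 56.2 in adult HSCs, 30.9 in adult HPCs, 143 in P14 HSCs and 63.6 in P14 HPCs, and in set 2 was in wild-type (140) and knockout (48.5) HPCs only. Both regions were thus called in P7 HPCs with and without the receptor, unlike that of Isg15.

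The remaining interferon-stimulated genes varied too. The region inside Ifi44, a gene strongly induced by interferon, had 154 in adult HSCs and 196 in adult HPCs, and in set 2 it was in wild-type HSCs (24.5) and knockout HPCs (16.8). The region inside Rtp4, a chaperone of cell surface receptors, had 108 in adult HSCs and was in wild-type HPCs (21.1) and in no other set 2 list. The region near Sp100, a nuclear body protein, had 37.3 in adult HSCs and was in none of the other 6 lists. Irf7, Usp18, Rsad2 and Ifit2, interferon-stimulated genes as well, had 3 to 6 adult HSC regions each and no gained one. For each of these 4 genes, 3 regions were in both fetal lists. Mx1 and Mx2 had no adult HSC region nearest to them within 50 kb. The Tlr6 region (chromosome 5, 64959155 to 64959472), whose promoter is printed above and which was looked at after its values were seen, had 34.7 in adult HSCs, 17.1 in adult HPCs, 33.7 in P14 HSCs, 16.8 in P14 HPCs, 12.6 in P21 HPCs and 9.998 in P7 HPCs, and was in no set 2 list.

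Upstream of these genes, 2 of 123 regions near interferon and JAK-STAT signalling genes were gained (1.63%, interval 0.198 to 5.75), near Stat3 and Irf1. The Irf1 region had 17.2 in adult HSCs, 37.6 in adult HPCs, 28.5 in P14 HSCs and 45.8 in P14 HPCs, and was in wild-type (70.7) and knockout (26.6) P7 HPCs. Irf1 encodes a transcription factor that binds interferon-responsive promoters. Ifnar1, Ifnar2, Jak1, Stat2 and Irf9 had no gained region. Of their adult HSC regions, 6 of 7 for Ifnar1 and 4 of 5 for Ifnar2 were in both fetal lists.

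For the other gene lists the interval of the gained share included the 1.4% near all genes. Of 56 regions near genes of the myeloid programme 2 were gained (3.57%), near Cebpb and Gfi1, transcription factors of granulocyte formation. Of 91 near innate and cytokine receptors 2 were gained, near Il1r1 and Csf2ra, and of 225 near HSC regulators 3 (1.33%, interval 0.276 to 3.85), near Ptprc, Gata2 and Kit. MHC and antigen presentation had 1 of 55 (H2-Eb1), the cell cycle 1 of 77 (Cdkn1c, an inhibitor of cyclin-dependent kinases), the fetal programme 1 of 89 (Arid3a), immediate early genes 1 of 91 (Ier2) and lymphoid priming 1 of 140 (Tcf7). None was near erythroid and megakaryocytic genes (0 of 55), or near markers of hepatocytes (0 of 9), endothelium (0 of 37), stroma (0 of 35), T and NK cells (0 of 25), B cells (0 of 23) or macrophages (0 of 33). A count of 0 of 55 allows a share of up to 6.49% and 0 of 9 up to 33.6%, the upper ends of the exact intervals.

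**Figure D4:**
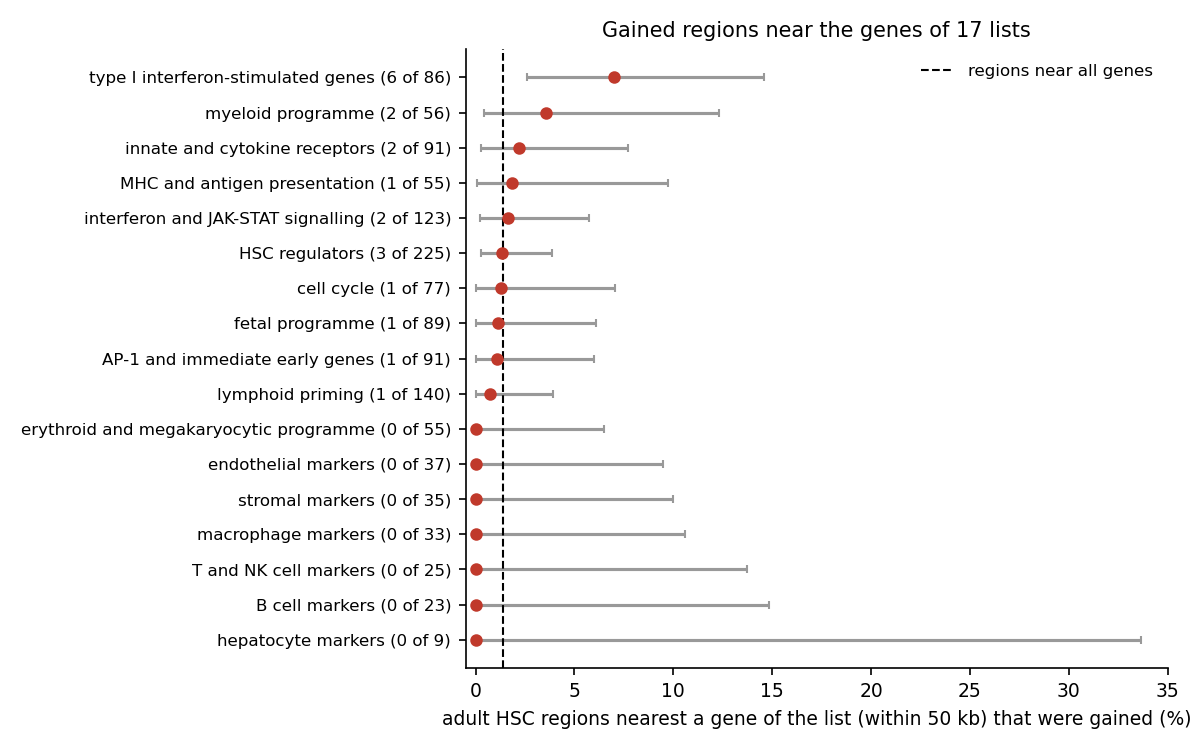
For each of 17 gene lists, the share (horizontal axis, %) of adult HSC regions nearest to a gene of the list within 50 kb that were gained, with exact 95% intervals and the counts in brackets; the dashed line is the share near all protein-coding genes, 1.4%. Type I interferon-stimulated genes have the highest point, 6.98%, and their interval, from 2.60% to 14.6%, lies to the right of the line.

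The Cebpb region (chromosome 2, 167686310 to 167686780) had 111 in adult HSCs, 65.7 in adult HPCs, 69.9 in P14 HSCs, 60.9 in P14 HPCs, 40.5 in P21 HPCs and 16.0 in P7 HPCs, and in set 2 was in wild-type HPCs (135), wild-type HSCs (58.9) and knockout HPCs (53.9). The Gata2 region had 55.2 in adult HSCs and was in wild-type (66.1) and knockout (49.6) P7 HPCs. The Arid3a region had 173 in adult HSCs and 26.7 in P7 HPCs, and was missing among the set 2 lists only from knockout HSCs. Those of Kit (28.7), Ptprc (57.2), Stat3 (35.6), Csf2ra (36.3) and H2-Eb1 (27.8) were in none of the other 6 lists. Mecom, Hlf, Lin28b, Hmga2 and Ciita, looked up in every case, had no gained region within 50 kb. Mecom and Hlf, regulators of HSC self-renewal, had 12 and 18 adult HSC regions within that distance, and 6 of each were in both fetal lists. Farther out, a gained region with 111 in adult HSCs (chromosome 3, 30233933 to 30234438) had Mecom as its nearest gene.

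A few places held several gained regions. Ccl5, a chemokine gene, Lmtk2, a kinase gene, and Cngb1, a subunit of a cyclic nucleotide-gated channel, had 3 each nearest to them. The Cngb1 regions at 95293075 to 95293809 and 95293909 to 95294428 (chromosome 8) had the same -log10 p in P14 HPCs, 36.1. They may be parts of a single accessible stretch. The Ccl5 regions spanned 16.7 kb (chromosome 11, 83534317 to 83551053), and 3 of the 4 adult HSC regions there were gained, with -log10 p of 103, 95.9 and 41.8. The strongest of these was called in all set 2 lists, at 105 in wild-type HPCs, 70.2 in wild-type HSCs, 114 in knockout HPCs and 46.3 in knockout HSCs. The region in the middle was not called in knockout HSCs, and that nearest to Ccl5 was in no set 2 list.

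In all, 6 clusters held at least 3 gained regions, each no more than 50 kb from the next. That with the most members lay between Fndc1 and Tagap on chromosome 17, over 42.9 kb, where 4 of 8 adult HSC regions were gained. The others lay at Ablim1 (3 of 3 regions), at Nsg2 (3 of 7, of which 2 gained regions lay inside the gene and 1 lay outside it, toward Cpeb4), at Dtx1, Oas2 and Oas3 (3 of 4), near Hcrtr1 and Tinagl1 (3 of 7) and at Ccl5. Dtx1 encodes a regulator of Notch signalling, and its gained region overlapped its promoter window. By gene body, Gse1 held the most, 8 of 57 adult HSC regions over 353 kb. Ablim1, an actin-binding protein gene, held 5 of 28 and Arhgap26 4 of 59. These places were singled out after their values were seen. Side by side at Ablim1, the regions 57243152 to 57243564 and 57243621 to 57244092 had the same values in P14 HSCs (202) and P14 HPCs (51.1). At Gse1 the same held for 120436341 to 120436700 and 120436763 to 120437030 (21.5 and 37.7). Such neighbours may be parts of a single accessible stretch, and the counts treat them as separate.

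The knockout lists lacked a larger share of the gained regions than of the regions open in the fetus. Of the 726 in wild-type P7 HPCs, 233 were missing from knockout HPCs (32.1%, interval 28.7 to 35.6). The share was 19.2% for those in 1 fetal list, 7.08% for those in both and 12.9% for all adult HSC regions in wild-type HPCs. Of all wild-type HPC regions, in the adult HSC list or not, 19.8% were missing. Of the 304 in wild-type P7 HSCs, 170 were missing from knockout HSCs (55.9%, interval 50.1 to 61.6). The share was 38.2% for those in 1 fetal list, 12.4% for those in both and 17.1% for all adult HSC regions in wild-type HSCs. Of all wild-type HSC regions, 19.6% were missing. The reverse also occurred. Of the 553 gained regions in knockout HPCs, 60 were missing from wild type (10.8%, interval 8.38 to 13.7). This compares with 7.12% of all adult HSC regions in knockout HPCs and 9.67% of all knockout HPC regions. In HSCs it was 81 of 215 (37.7%, interval 31.2 to 44.5), against 11.1% of adult HSC regions in knockout HSCs and 12.9% of all knockout HSC regions.

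Strength moved with these shares. In wild-type HPCs, 64.8% of gained regions in class 1 of that list were missing from the knockout, 23.0% in class 2, 5.26% in class 3 and 0 of 30 in class 4. For regions of both fetal lists the shares were 42.3%, 11.2%, 0.722% and 0.0579%. In HSCs, 72.3% of 191 gained regions in class 1 were missing, 33.7% of 92 in class 2, 1 of 19 in class 3 and 0 of 2 in class 4, against 47.9%, 16.7%, 2.28% and 0.203% for regions of both fetal lists. Within the same class the gained share was thus higher than that of regions in both fetal lists in classes 1 to 3. The interval for class 3 of HSCs, 0.133 to 26.0, includes the other value. For regions in 1 fetal list the shares in classes 1 to 3 were 50.48%, 16.04% and 2.96% in HPCs. In HSCs they were 58.81%, 26.97% and 7.35%, the last above the gained 5.26%. The gained intervals include these values in class 3 of HPCs and in classes 2 and 3 of HSCs. Restricted to the stronger 50% of the wild-type list, the missing share of gained regions was 4.48% in HPCs and 4.76% in HSCs. The knockout lists were also shorter, with 58567 regions against 66044 in HPCs and 42459 against 45615 in HSCs, and the part of list length in these shares was not tested.

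**Figure D5:**
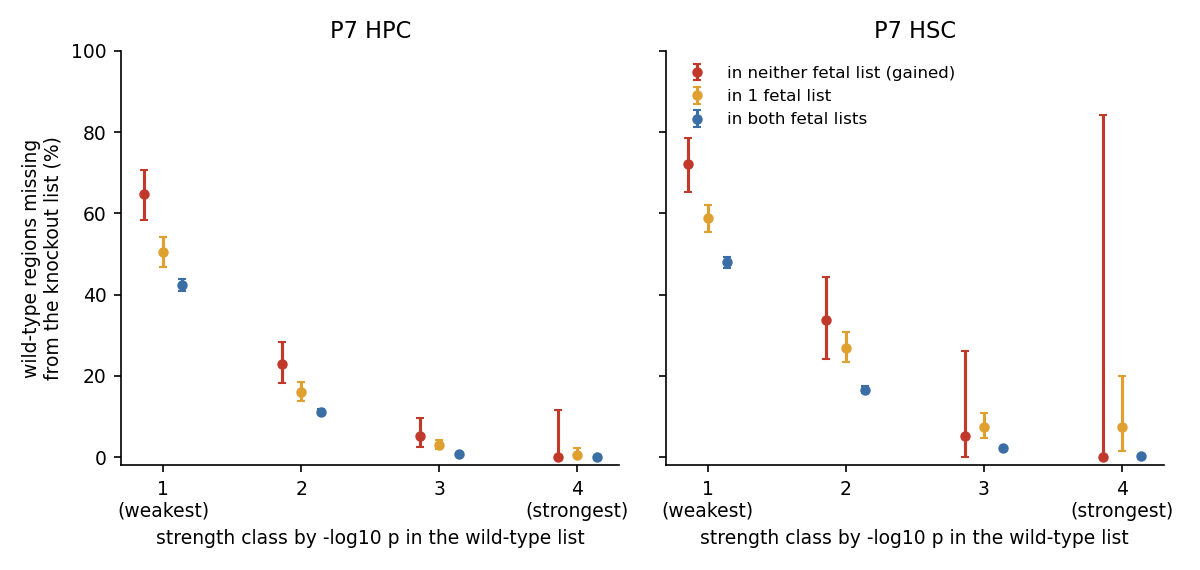
Share of wild-type P7 regions missing from the knockout list (vertical axis, %) by strength class of -log10 p in the wild-type list (1 weakest, 4 strongest), for HPCs (left) and HSCs (right), with exact 95% intervals. In HPCs the gained regions fall from 64.8% in class 1 to 0 of 30 in class 4, and stand above regions of both fetal lists in classes 1 to 3.

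The lists of set 2 were also read together. Of the 1175, 37 (3.15%, interval 2.23 to 4.31) were in both set 2 wild-type lists and in neither knockout list. This compares with 1.14% of regions in both fetal lists and 1.1% of all adult HSC regions. Both wild-type lists held 252 of the 1175, and only these could show the pattern. The opposite pattern, in both knockout lists and neither wild-type list, occurred for 6 (0.511%, interval 0.188 to 1.11). It occurred for 0.476% of regions in both fetal lists and 0.433% of all adult HSC regions. In 19 (1.62%, interval 0.976 to 2.51) the region was in all 8 postnatal lists other than the knockouts, against 0.958% of regions in the 4 postnatal lists of the rule.

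Strongest among the 37, where a gene without a numbered name lay within 50 kb, were those of Col16a1, Foxn3, Kcnk6, Ablim1, Fndc1, Itsn1, Crybb1 and Cnn2. The Foxn3 region, inside a forkhead repressor gene (chromosome 12, 99195585 to 99196045), had 396 in adult HSCs, 103 in wild-type HPCs and 28.8 in wild-type HSCs. The Kcnk6 region, 1.05 kb from a potassium channel gene, had 344, 27.3 and 42.2. The Itsn1 region, inside an endocytic scaffold gene, had 81.4, 70.2 and 56.1. All of these regions lay in the lower 50% of at least 1 of the wild-type set 2 lists.

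Gm12250, chosen after its values were seen, was the second interferon-linked gene start among the 19, with Isg15. Its region (chromosome 11, 58183593 to 58184277) had 77.2 in adult HSCs, 61.8 in adult HPCs, 75.4 in P14 HSCs, 66.4 in P14 HPCs, 29.0 in P21 HPCs and 24.6 in P7 HPCs. In set 2 it had 105 in wild-type HPCs and 80.3 in wild-type HSCs, in the upper 50% of both lists, and neither knockout list called it. Others of the 19 lay near genes of unlike function, such as Orai1, a calcium channel (54.3 in adult HSCs), Ier2, an immediate early gene (45.2), Hrh2, a histamine receptor (33.2), and inside Rb1, a cell cycle inhibitor (32.9). Of the 6 gained regions near the list of interferon-stimulated genes, that of Isg15 was the only member of the 19.

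The list of interferon-stimulated genes as a whole did not stand out in the knockout. Of all adult HSC regions nearest to these genes, 6 of the 59 in wild-type HPCs were missing from knockout HPCs (10.2%), against 11.1% near all genes, and 12 of the 52 in wild-type HSCs from knockout HSCs (23.1%), against 16.0%. Among the 6 gained ones, 4 were in wild-type HPCs, and those of Isg15 and Rtp4 were missing from knockout HPCs. Only those of Isg15 and Ifi44 were in wild-type HSCs, and both were missing from knockout HSCs.

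The 6 gained regions that only the knockout lists held lay near Anxa13 (192 in adult HSCs, 37.0 in knockout HPCs and 49.8 in knockout HSCs), Maz (78.8, 40.5 and 20.4), Ppp1r12b, Efcab15, Scfd2 and Ilrun. Anxa13 encodes an annexin and Maz a zinc finger factor that binds GC-rich DNA. Of the 6, that of Ppp1r12b was called in P7 HPCs of set 1, at 12.3, so it was not absent from every P7 list without the knockout.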

How the data were processed

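ATAC-seq peak lists of 12 groups of mouse HSCs and HPCs were analysed. Reads were aligned with Bowtie2 to mm10 (GRCm38) and peaks called with MACS2, per the submitters' processing notes; tool versions and settings, read depths and how libraries were combined into a list: not given in the sources used here. For each peak the authors deposited a score and a fold (ratio) over local background, with -log10 p and q. Within a list, peaks of chromosomes 1 to 19 and X that touched or overlapped were merged (Python 3.11.15, numpy 2.4.6, pandas 2.3.3, scipy 1.17.1), and a region took the values of its peak with the highest -log10 p. Regions were shared when at least 1 bp overlapped, and of several the strongest gave the value. On simulated data, 500 of 500 regions planted as gained among copies of the 89431 adult HSC regions were found. The copies kept the positions of the regions and only trimmed their edges. This therefore checks how the rule was coded and not how many regions are found in real lists.

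The members, gene lists and tests were chosen with earlier results of these data known. With 1 pooled list per group there was no test; shares have exact Clopper-Pearson intervals at 95%. Ages were compared within set 1 and genotypes within set 2, since set 1 lists reached down to a -log10 p near 1 and set 2 lists to 2. Genes are those of the RefSeq table for GRCm38.p6, which gives no strand, so position refers to either end of 21631 protein-coding genes in place of the start. Starts, and with them promoter windows, were had for 17274 of these. Region sequences were not used here. The 17 gene lists held 236 genes, of which 232 matched by symbol. Named genes are those nearest, within 50 kb, to the 15 strongest gained regions, the 5 strongest in all 10 postnatal lists, the 5 in none of the other 6, the 8 strongest in both wild-type and neither knockout list and the 8 genes with most regions, with up to 3 per gene list and 8 always looked up. Some items that this rule or the marker lists name are not reported here. Alternatives changed the overlap, the peak threshold, the list length, the fetal gap, the merging and the P14 requirement.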

Additional observations from a re-analysis of the deposited data

How the results depend on the processing

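The count of gained regions was 1085 when 50% of each region had to be covered in the other postnatal lists, 1257 with peaks of -log10 p of at least 10, 786 with the 50000 strongest regions of each set 1 list, 950 without any fetal region within 1000 bp and 1175 with unmerged peaks. It was 4858 without the P14 lists and 290 for strong adult HSC regions, by construction a wider and a narrower rule. With the 50000 strongest regions the shares called were 67.3% in P7 HPCs, 83.6% in P21 HPCs, 90.8% and 66.2% in wild-type HPCs and HSCs, and 84.2% and 53.7% in knockout HPCs and HSCs; the knockout lacked 10.4% (HPCs) and 36.3% (HSCs), and 5.73% lay within 1 kb of a gene end. Without the P14 lists the shares called were 33.4%, 39.9%, 27.5%, 8.40%, 18.8% and 5.83% in the same order, the knockout lacked 43.7% in HPCs, and 5.64% lay within 1 kb of a gene end. For strong adult HSC regions the shares called were 72.4% in P21 HPCs, 52.8% and 31.7% in wild-type HPCs and HSCs, and 36.2% and 22.1% in knockout HPCs and HSCs; the knockout lacked 38.6% and 47.8%, and 3.79% lay within 1 kb. The P7 HPC share was 47.0% with peaks of -log10 p of at least 10, and 48.8% when 50% of the region had to be covered there, which put knockout HSCs at 16.1%. For strong wild-type regions the knockout lacked 4.48% in HPCs and 4.76% in HSCs. Without any fetal region within 1000 bp 5.89% lay within 1 kb of a gene end, and 21.9% lay within 5 kb. The cause of these moves was not tested. The share near interferon-stimulated genes stayed within its interval in all alternatives run, from 5.66% to 9.30%. Its own interval under the alternatives began at 1.18% with the 50000 strongest regions and at 1.25% for strong adult HSC regions, below the 1.4% near all genes. That 1.4% holds for the rule as reported. The alternatives also changed how many regions were gained, for instance 290 for strong adult HSC regions and 4858 without the P14 lists. The share near all genes under each alternative is not given here, so these values are not set against a base of their own.

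No paired analysis was possible because each group's libraries were pooled into 1 list, and leaving out single replicates was not run for the same reason. The depth behind each list is unknown, and a region that was not called is not shown to be closed.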
